A study of Mus musculus with 18 samples.

Results

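The cytosolic ribosomal protein genes were described here in 3 dendritic cell populations of mouse spleen. The members were all probe sets with 1 gene symbol in the platform annotation that begins with Rpl or Rps and a number, or is Rplp0, Rplp1 or Rplp2, leaving out the ribosomal S6 kinases and symbols of pseudogenes. The rule found 70 probe sets of 44 genes among 36701 probe sets, 48 of them on the array type U74A, 2 on U74B and 20 on U74C. A probe set is a group of short oligonucleotides on the array that reads 1 transcript, and 17 of the genes had several, so that probe sets of a gene are not independent. By role, 24 probe sets (17 genes) read proteins of the large subunit, 32 (18 genes) proteins of the small subunit and 4 (2 genes) the stalk. The other 10 (7 genes) read paralogs or a partner: Rpl3l, Rpl7l1, Rpl10l, Rpl39l, Rps4l, Rps27l and Rps19bp1.

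The cytosolic ribosome is built from ribosomal RNA and a fixed set of proteins, made in about equal numbers and joined to the RNA in the nucleolus. The small subunit reads the mRNA, the large subunit joins the amino acids, and the stalk of the large subunit recruits the elongation factors. In mammals most of these mRNAs begin with a C and a run of pyrimidines, the 5' terminal oligopyrimidine tract, through which the kinase mTOR controls their translation, so that output can change without a change in the mRNA.

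The study held 6 samples on 18 Affymetrix arrays: 2 samples of interferon-producing killer dendritic cells (IKDC), 2 of plasmacytoid dendritic cells (PDC) and 2 of conventional dendritic cells (cDC), the population used as control by the submitters. Each sample was hybridised to U74A, U74B and U74C. All 3 populations came from mouse spleen. Not given in the sources used here are the strain, genotype, age and treatment of the mice and the gate of the sort. The series design calls the 2 samples of a population biological and separately prepared, and whether these were separate animals, or pools of them, is not given there. Values are signals, scaled by the authors so that the mean of each array was about 150, and a difference is therefore one relative to all other transcripts of the sample.

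The labels were set against markers, with a gene passing the test at an adjusted p under 0.05 by limma, a linear model fitted over all probe sets. Of 8 markers shared by natural killer cells and IKDC, 8 passed the test as higher in IKDC than in PDC and in cDC. Of these 8, 2 were also higher in PDC than in cDC. Of 7 PDC markers, 7 were higher in PDC than in cDC and 6 were lower in IKDC than in PDC. Of 8 cDC markers 7 were lower in IKDC than in cDC and 3 were lower in PDC than in cDC. Against PDC, 6 cDC markers were lower in IKDC and 1 was higher. The cDC markers summed to signals of 4819 to 6338 in IKDC, 31320 to 31640 in PDC and 46170 to 52300 in cDC. Markers of other cells moved with the groups too. The 3 tested erythroid genes summed to signals of 14210 to 16770 in IKDC, 9365 to 22260 in PDC and 671.9 to 1661 in cDC, and all 3 passed as higher in IKDC and in PDC than in cDC. The 5 tested pancreas genes summed to 3411 to 4064 in IKDC, 1576 to 1851 in PDC and 793.8 to 934.3 in cDC, and all 5 passed as higher in IKDC than in cDC and 2 in PDC than in cDC. B cell genes (4 tested) summed to 4726 to 7495 in IKDC, 3043 to 7372 in PDC and 551.0 to 719.6 in cDC, with 1 higher in IKDC and 1 in PDC than in cDC. T cell genes (4 tested) summed to 1904 to 2865 in IKDC, 362.6 to 521.5 in PDC and 157.8 to 297.2 in cDC, with 3 higher in IKDC and 1 in PDC than in cDC. Macrophage genes (5 tested) summed to 377.6 to 382.4 in IKDC, 1929 to 2237 in PDC and 4672 to 5466 in cDC, with 4 lower in IKDC and 3 in PDC than in cDC. Between IKDC and PDC, 2 T cell genes and 1 erythroid gene passed as higher in IKDC and 1 macrophage gene as lower. Of the B cell and pancreas genes 0 passed there. The part of these cells in the ribosomal protein signals was not tested, and fewer cells of a type and less RNA per cell cannot be told apart in such samples.

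Of the 44 genes, 37 matched the promoter table of RefSeq (GRCm38.p6), with 47 annotated starts. A pyrimidine run, a C followed by 4 letters that are each C or T and beginning within 5 bases of the annotated start on the transcribed strand, was found in 15 of 39 windows of subunit and stalk genes (38.5%), against 18.3% of all 32851 windows. The sequence CCGGAAG, searched on both strands from 250 bases before to 50 after the start, was in 13 of these 39 windows (33.3%) and in 8.86% of all windows. The sequence AAGATGGC was in 7 of 39 (17.9%) and in 2.75% of all windows. The 39 windows are of 31 genes, and a gene with several annotated starts counts once for each. Such windows can overlap, as those of Rpl35a do, which all hold AAGATGGC. Among the 8 windows of paralogs and partners, 1 held the pyrimidine run, 2 held CCGGAAG and 1 held AAGATGGC. A match describes letters only. The starts shown were picked from genes with values below, some because they hold the run, and do not stand for all members. They run from 40 bases before the annotated start. Capitals mark the pyrimidine run from its first C within 5 bases of that start. Pyrimidines directly before that C, as in Rpl7a, are in lower case.
Rplp2, chr7:141447611-141447665, plus strand: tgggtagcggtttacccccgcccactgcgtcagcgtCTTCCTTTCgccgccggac
Rpl7a, chr2:26910767-26910821, plus strand: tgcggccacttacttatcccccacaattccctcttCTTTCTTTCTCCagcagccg
Rps18, chr17:33955651-33955705, minus strand: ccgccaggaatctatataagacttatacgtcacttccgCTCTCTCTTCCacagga
Rps24, chr14:24490638-24490692, plus strand: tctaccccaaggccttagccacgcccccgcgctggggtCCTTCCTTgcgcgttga
Rps27, chr3:90213634-90213688, minus strand: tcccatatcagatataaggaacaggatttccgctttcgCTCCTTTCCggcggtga
Rpl13a, chr7:45128731-45128785, minus strand: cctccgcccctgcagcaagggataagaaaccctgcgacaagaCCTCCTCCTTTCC
The second start annotated for Rps24 and the starts of Rplp0 and Rpl10a held no such run beginning within 5 bases of the start. Runs that begin further off, as in the Rpl10a sequence below, were not counted.
Rplp0, chr5:115559427-115559481, plus strand: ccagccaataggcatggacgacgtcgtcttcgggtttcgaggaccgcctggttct
Rpl10a, chr17:28328525-28328579, plus strand: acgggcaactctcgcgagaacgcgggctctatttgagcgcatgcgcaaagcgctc

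Whether the 3 populations differ in ribosomal protein mRNA was asked by 3 comparisons: IKDC with cDC, PDC with cDC and IKDC with PDC. Any 2 of these comparisons share the samples of 1 population. A probe set was tested if its signal was 60 or more on at least 2 of 6 arrays, which 50 of the 70 members (71.4%) and 63.4% of all probe sets met. The 20 members left out had signals of 0.4 to 154.7, and 6 genes had no tested probe set: Rps6, the main substrate of the S6 kinases, Rps15, Rps15a, Rpl32, Rpl39 and Rpl39l. Of the 17 genes with several probe sets, 9 had both tested and untested ones, so that a low signal of 1 probe set did not stand for the gene. Among the 50 tested members, 29 had a signal of 200 or more on all 6 arrays, 21 had 1000 or more on all 6, and 14 had an array under 60.

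No ribosomal protein probe set passed the test in any of the 3 comparisons (limma, Benjamini-Hochberg adjusted p under 0.05 over all 23285 tested probe sets). In IKDC versus cDC 0 of 50 members passed, where 5.6% of all probe sets did. In PDC versus cDC it was 0 of 50 against 3.65%, and in IKDC versus PDC 0 of 50 against 4.45%. With 1 probe set per gene it was 0 of 38 genes in each, where 7.57% of all genes passed in IKDC versus cDC, 4.99% in PDC versus cDC and 5.88% in IKDC versus PDC. At an unadjusted p under 0.05 there were 2 of 50 members in IKDC versus cDC (18.9% of all probe sets), 3 in PDC versus cDC (14.9%) and 3 in IKDC versus PDC (14.5%). The U74C probe set of Rpl22 is counted in both comparisons with cDC. It entered the test only through its cDC arrays, so that its direction was fixed by the signal minimum.

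The median log2 difference of the 50 members was 0.01 in IKDC versus cDC, 0.06 in PDC versus cDC and -0.03 in IKDC versus PDC. Over all tested probe sets it was -0.01, -0.01 and -0.02 in the same order. Single members ranged from -1.93 to 0.95 in IKDC versus cDC, from -1.73 to 1.54 in PDC versus cDC and from -1.59 to 1.03 in IKDC versus PDC. The 21 members with an array under 200 were the less precise, with a median standard error of 0.59 against 0.29 in the 29 brighter ones.

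**Figure D1:**
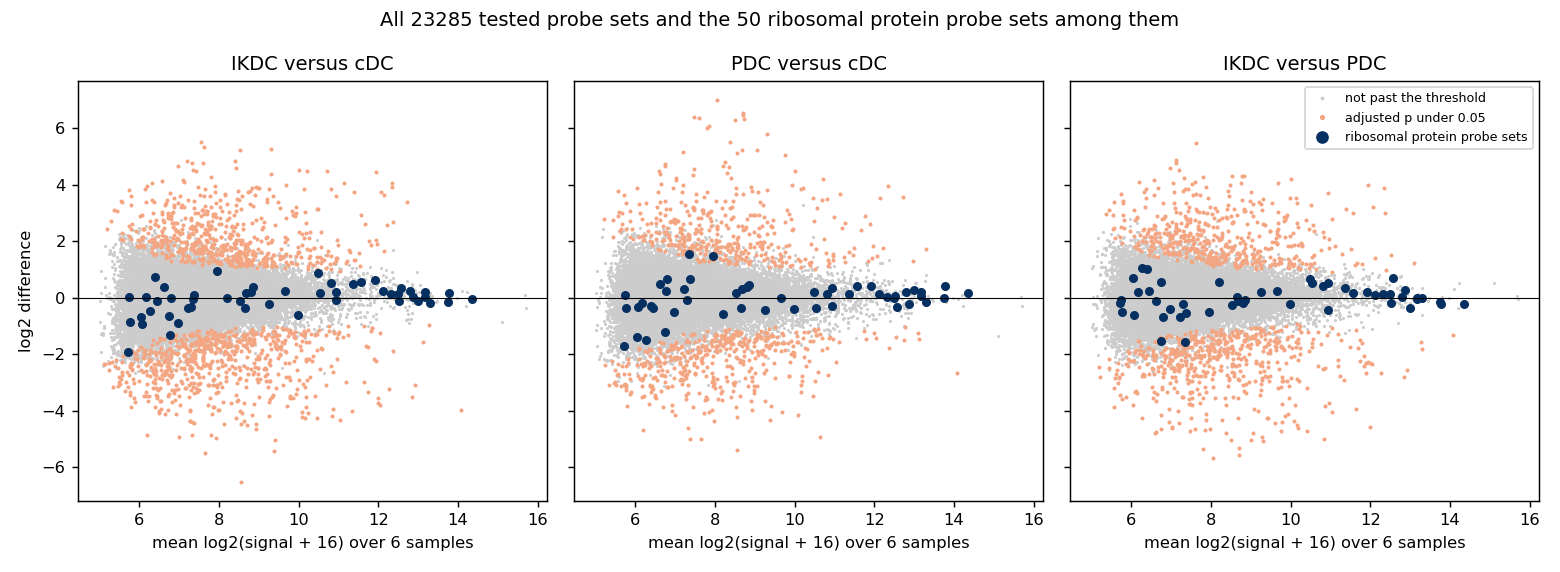
Log2 difference (vertical axis) against the mean log2(signal + 16) over 6 samples (horizontal axis) for the 23285 tested probe sets, 1 panel per comparison, with those past the threshold in orange and the 50 ribosomal protein probe sets as dark points. The dark points lie in the grey band in each panel, with the widest scatter at low signal.

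The size of difference these arrays could bound was given by the intervals. The median standard error of a member's log2 difference was 0.34, against 0.43 over all tested probe sets. The 95% interval lay within a 2-fold change in either direction for 21 of 50 members in IKDC versus cDC (42%), 20 in PDC versus cDC (40%) and 21 in IKDC versus PDC (42%), against 17.5%, 20.5% and 19.8% of all tested probe sets. Among the 29 members at 200 or more on all 6 arrays, it was 20 (69.0%), 19 (65.5%) and 20 (69.0%), beside 47.9%, 54.2% and 53.2% of the 5094 probe sets of that signal. For the other members the interval held a 2-fold difference in at least 1 direction. An interval within 2-fold bounds a difference but does not mean that one of that size would have passed, and a missed threshold does not show equal levels. The smallest log2 difference that passed anywhere in the table was 0.95 in IKDC versus cDC, 1.02 in PDC versus cDC and 0.92 in IKDC versus PDC.

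**Figure D2:**
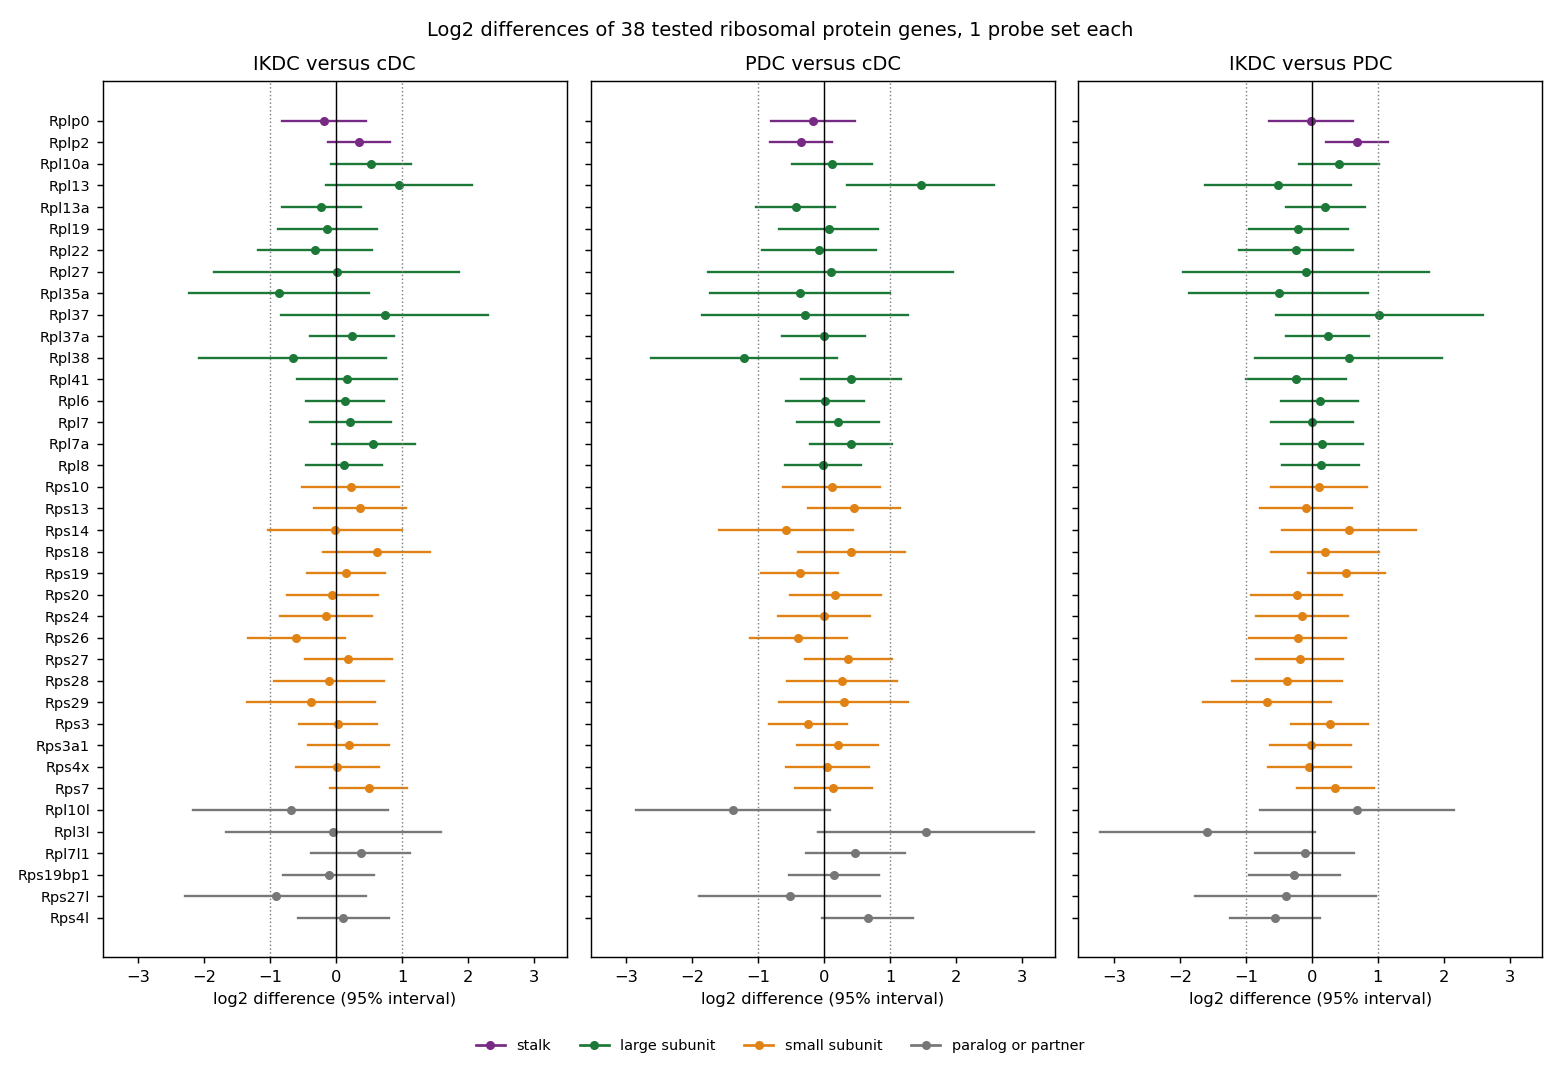
Log2 difference (point) with its 95% interval (line) for the 38 tested ribosomal protein genes, 1 probe set each, coloured by role, with dotted lines at a 2-fold change. All 38 intervals include 0 in IKDC versus cDC, and Rpl13 in PDC versus cDC and Rplp2 in IKDC versus PDC lie off it.

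The stalk proteins gave the member nearest to the threshold in IKDC versus PDC. Rplp2, an acidic protein of the stalk, was read only by an _i probe set on U74C. Its signals were 7976 and 7348 in IKDC, 4706 and 4798 in PDC and 5797 and 6282 in cDC. Both IKDC samples were above both cDC samples, and both PDC samples were below them, with no overlap among the 3 populations. The log2 difference was 0.69 ± 0.21 (SE) in IKDC versus PDC (limma unadjusted p = 0.00843, adjusted p = 0.124), 0.34 ± 0.21 in IKDC versus cDC and -0.34 ± 0.21 in PDC versus cDC. Rplp0, the protein that anchors the stalk, had 3 tested probe sets. The one on U74A had signals of 10610 and 8515 in IKDC, 11091 and 8373 in PDC and 11803 and 9990 in cDC. The groups overlapped, and the log2 difference was -0.19 ± 0.29 in IKDC versus cDC and -0.17 ± 0.29 in PDC versus cDC. The _r probe set of Rplp0 on U74C, with signals of 70.4 and 72.6 in IKDC, 47.4 and 13.0 in PDC and 95.9 and 116.4 in cDC, had an unadjusted p under 0.05 in PDC versus cDC (log2 difference -1.51 ± 0.66, limma adjusted p = 0.317). The suffix r marks a probe set whose design rules were relaxed, and the other 2 probe sets of Rplp0 had overlapping PDC and cDC samples. The U74C probe set of Rps14 and the U74A probe set of Rps13, given below, also carry the suffix r.

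In the large subunit 0 of 18 tested probe sets passed in each comparison, and their median log2 difference was 0.12 in IKDC versus cDC, 0.0049 in PDC versus cDC and 0.13 in IKDC versus PDC. Rpl10a, a protein of the large subunit beside the site where tRNA leaves, gave the smallest p of all members in IKDC versus cDC. Its first probe set had signals of 2569 and 1924 in IKDC, 1845 and 1514 in PDC and 1423 and 1658 in cDC. Its second had 1864 and 2255 in IKDC, 1232 and 1345 in PDC and 1282 and 956.5 in cDC. In both probe sets both IKDC samples were above all PDC and cDC samples. The log2 difference of IKDC from cDC was 0.53 ± 0.28 (limma adjusted p = 0.336) in the first and 0.88 ± 0.27 (unadjusted p = 0.00782, adjusted p = 0.096) in the second, and that from PDC was 0.41 ± 0.28 and 0.67 ± 0.27. The second carries the suffix f, given to probe sets that match several members of a gene family. The same suffix marks the probe sets of Rpl41 and Rps26 and the brightest ones of Rps20 and Rps28, described below. Rpl10a, Rplp2, Rpl13, Rpl3l, Rpl7a, Rps7, Rps18 and Rps27 are described here after their values were seen.

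Rpl7a, a large subunit protein, had signals of 3731 and 3385 in IKDC, 3453 and 2947 in PDC and 2940 and 1954 in cDC. Both IKDC and both PDC samples were above both cDC samples, with PDC replicate 2 and cDC replicate 1 nearly level. The log2 difference was 0.57 ± 0.29 in IKDC versus cDC (limma adjusted p = 0.32) and 0.41 ± 0.29 in PDC versus cDC (adjusted p = 0.6). Rpl13, read on U74C only, had signals of 172.7 and 390.0 in IKDC, 343.4 and 416.4 in PDC and 186.6 and 84.8 in cDC. Both PDC samples were above both cDC samples, and the IKDC samples overlapped both groups. Its log2 difference in PDC versus cDC was 1.46 ± 0.50 (limma adjusted p = 0.181), the smallest p of the members in that comparison.

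Rpl41, the smallest protein of the ribosome, had signals of 14451 and 13108 in IKDC, 23116 and 11515 in PDC and 11620 and 13013 in cDC. PDC replicate 1 was the highest of the 6 and PDC replicate 2 the lowest, and the log2 difference of PDC from cDC was 0.41 ± 0.35. Rpl7 had signals of 8266 and 6709 in IKDC, 8551 and 6449 in PDC and 6620 and 6212 in cDC, with both IKDC samples just above both cDC samples and a log2 difference of 0.22 ± 0.28. Rpl8, whose protein lies close to the site of peptide bond formation, had 6598 and 5717 in IKDC, 6053 and 5185 in PDC and 5712 and 5613 in cDC, with both IKDC samples again above both cDC samples and a 95% interval of -0.47 to 0.70. Rpl13a, also known for a role in translational silencing in interferon-treated human myeloid cells, had 588.2 and 591.9 in IKDC, 597.2 and 434.3 in PDC and 660.4 and 727.0 in cDC. Both of its cDC samples were the highest, at a log2 difference of -0.23 ± 0.27 in IKDC and -0.43 ± 0.27 in PDC.

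Rpl22, which mice need for the development of alpha-beta T cells, had 3 tested probe sets that differed. The _i probe set on U74C had signals of 20.0 and 12.7 in IKDC, 41.3 and 7.6 in PDC and 122.1 and 92.2 in cDC. Both IKDC and both PDC samples were under 60 there and under both cDC samples, with limma adjusted p = 0.185 in IKDC and 0.303 in PDC. The first on U74A had 126.8 and 119.1 in IKDC, 237.4 and 90.8 in PDC and 154.2 and 160.2 in cDC, with IKDC below cDC and PDC on both sides of it. The second on U74A had 88.6 and 60.8 in IKDC, 42.1 and 82.3 in PDC and 47.0 and 133.9 in cDC, with overlap in every comparison. The U74C probe set entered the test only through its 2 cDC arrays, so that cDC being highest there was fixed by the signal minimum.

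The remaining members of the large subunit were of high or of low signal. Rpl6 had 5889 and 4924 in IKDC, 5263 and 4673 in PDC and 4588 and 5260 in cDC, with overlap in every comparison and a 95% interval of -0.46 to 0.72 in IKDC versus cDC. Rpl19, a protein near the tunnel through which the chain leaves, had 5918 and 4861 in IKDC, 8230.0 and 4670 in PDC and 7338 and 4750 in cDC, with the 2 IKDC samples inside the spread of both other groups. Rpl37a had 878.3 and 890.3 in IKDC, 814.4 and 682.6 in PDC and 925.2 and 603.6 in cDC, with both IKDC samples above both PDC samples. Rpl27, Rpl35a, Rpl37 and Rpl38 had all tested signals between 10.2 and 209.6, with at least 1 array under 60 each, and their intervals did not bound a 2-fold difference in any comparison.

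**Figure D3:**
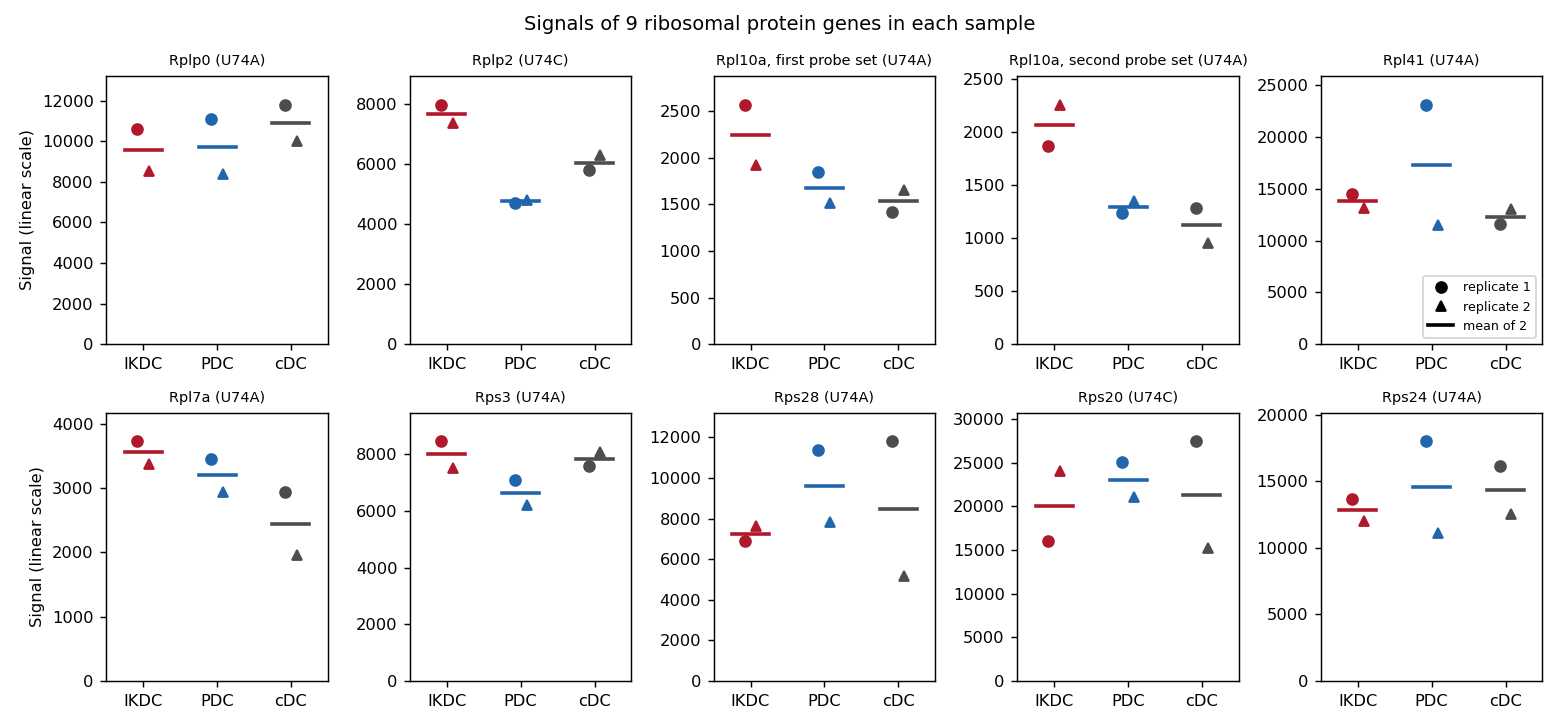
Signals on a linear scale in each sample (circle, replicate 1; triangle, replicate 2; bar, mean of 2) for 10 probe sets of 9 ribosomal protein genes in IKDC, PDC and cDC. Rplp2 shows no overlap among the populations, while PDC replicate 1 exceeds PDC replicate 2 in Rpl41, Rps28 and Rps24.

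In the small subunit 0 of 21 tested probe sets passed in each comparison, and the median log2 difference was 0.01 in IKDC versus cDC, 0.14 in PDC versus cDC and -0.09 in IKDC versus PDC. Rps3, which lies at the mRNA entry of the small subunit and is also known as a partner of NF-kappaB, had U74A signals of 8458 and 7526 in IKDC, 7092 and 6192 in PDC and 7602 and 8080 in cDC. Both PDC samples were the lowest, at a log2 difference of -0.24 ± 0.27 from cDC (95% interval -0.83 to 0.34). A U74C probe set of Rps3 had 369.9 and 343.3 in IKDC, 453.9 and 270.9 in PDC and 489.1 and 435.5 in cDC. Another on U74C had 197.0 and 782.2 in IKDC, 347.1 and 536.6 in PDC and 522.5 and 232.4 in cDC. On neither were both PDC samples the lowest, and the log2 differences of PDC from cDC were -0.38 ± 0.36 and 0.29 ± 0.59. Rps3a1 had 10173 and 9129 in IKDC, 11226 and 8444 in PDC and 8715 and 8187 in cDC, and Rps4x, an X-linked gene in mice, had 9781 and 8489 in IKDC, 10672 and 8186 in PDC and 10098 and 8068 in cDC. The Rps3a1 signals of IKDC were above those of cDC, and the other comparisons of both genes overlapped. The interval of Rps4x ran from -0.62 to 0.64 in IKDC versus cDC and from -0.58 to 0.68 in PDC versus cDC, which bounds a difference at under 2-fold.

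Rps24, mutated in some human Diamond-Blackfan anaemias, had signals of 13652 and 12031 in IKDC, 18018 and 11144 in PDC and 16189 and 12516 in cDC, and replicate 1 was the higher in all 3 populations. A further probe set of Rps24 had 40.1 and 23.1 in IKDC, 83.8 and 34.9 in PDC and 80.7 and 66.6 in cDC. There both IKDC samples were below both cDC samples, at a log2 difference of -0.93 ± 0.47 (limma adjusted p = 0.315), while the brighter probe set overlapped, at -0.15 ± 0.32. The brighter probe set carries the suffix r, and the further one carries no suffix letter. Rps28 had 3 tested probe sets, and the brightest gave 6873 and 7649 in IKDC, 11398 and 7847 in PDC and 11812 and 5178 in cDC. The spread between the cDC samples covered both other groups. A further probe set of Rps28 gave 1696 and 1716 in IKDC, 2483 and 2180 in PDC and 1893 and 1745 in cDC, with both PDC samples highest and a log2 difference from cDC of 0.35 ± 0.25 (limma adjusted p = 0.615).

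Rps19, the gene most often mutated in Diamond-Blackfan anaemia in humans, had 1957 and 1524 in IKDC, 1316 and 1092 in PDC and 1564 and 1547 in cDC. Both PDC samples were the lowest, at a log2 difference of 0.52 ± 0.27 in IKDC versus PDC (limma adjusted p = 0.419) and -0.37 ± 0.27 in PDC versus cDC (adjusted p = 0.615). Rps14, a gene of a human myelodysplastic syndrome, had 486.8 and 209.3 in IKDC, 168.0 and 266.3 in PDC and 367.2 and 285.4 in cDC on its U74C probe set, with the IKDC samples spanning the cDC samples and overlapping PDC. Rps7 had 3085 and 3258 in IKDC, 2787 and 2203 in PDC and 2447 and 2066 in cDC. The IKDC samples were the highest, at a log2 difference of 0.49 ± 0.27 from cDC (limma adjusted p = 0.358).

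Rps20, a protein of the head of the small subunit, had 15969 and 23990 in IKDC, 25041 and 21092 in PDC and 27446 and 15214 in cDC on its brightest probe set, and the cDC samples spanned all of IKDC. Rps10 had 4918 and 4597 in IKDC, 5465 and 3564 in PDC and 5408 and 3077 in cDC, again with IKDC inside both other groups. Rps26, which lies at the mRNA exit channel, had 766.9 and 880.2 in IKDC, 1155 and 791.3 in PDC and 1677 and 940.1 in cDC. The IKDC samples lay below both cDC samples, at a log2 difference of -0.60 ± 0.33 (limma adjusted p = 0.373). Rps13 had 482.8 and 476.4 in IKDC, 534.7 and 490.4 in PDC and 323.8 and 418.2 in cDC on its U74C probe set. There the cDC samples were the lowest, at log2 differences of 0.37 ± 0.32 in IKDC and 0.46 ± 0.32 in PDC, while its U74A probe set, with signals of 42.2 to 146.9, overlapped between IKDC and cDC.

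Rps18 had 3843 and 5688 in IKDC, 5146 and 3228 in PDC and 4249 and 2197 in cDC, and Rps27 had 440.0 and 415.8 in IKDC, 589.7 and 403.9 in PDC and 439.3 and 319.3 in cDC. The groups overlapped in every comparison of both genes.

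The paralogs and the partner were tested as 7 probe sets of 6 genes, and 0 passed in each comparison. Their median log2 difference was -0.12 in IKDC versus cDC, 0.24 in PDC versus cDC and -0.39 in IKDC versus PDC. Rpl3l, known as the muscle paralog of Rpl3, had 91.6 and 101.8 in IKDC, 300.4 and 345.1 in PDC and 278.1 and 29.8 in cDC on its first probe set and 14.1 and 88.1 in IKDC, 183.9 and 118.7 in PDC and 93.7 and 160.2 in cDC on its second. In both the PDC samples were above the IKDC samples, at log2 differences in IKDC versus PDC of -1.59 ± 0.74 and -1.55 ± 0.69 (limma adjusted p = 0.364 and 0.337). Both carry the suffix f, and the single-symbol rule found no probe set of Rpl3 to set beside them.

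Rps4l, a transcribed pseudogene in the RefSeq gene table although its symbol passes the rule, had 138.1 and 130.5 in IKDC, 247.6 and 169.1 in PDC and 116.8 and 130.6 in cDC on its tested probe set. Both PDC samples were the highest, at a log2 difference of 0.66 ± 0.31 from cDC (limma adjusted p = 0.357), while its parent family member Rps4x overlapped. The tested probe set of Rps4l carries the suffix s, and whether it also reads other members of that family was not tested. The tested probe set of Rpl7 and that given for Naca carry the same suffix. Rpl7l1, a paralog of Rpl7, had 80.8 and 97.2 in IKDC, 94.6 and 98.8 in PDC and 65.4 and 64.8 in cDC, with both cDC samples lowest and adjusted p = 0.622 in IKDC and 0.615 in PDC by limma. Rpl10l, the autosomal copy of Rpl10 used in male germ cells in mice, had 42.6 and 57.9 in IKDC, 16.6 and 35.5 in PDC and 110.8 and 73.3 in cDC. It entered the test only through its cDC arrays, so that their being highest was fixed by the signal minimum. Rps27l, a p53 target in human cells, had 45.5 and 125.3 in IKDC, 66.8 and 165.4 in PDC and 172.3 and 148.1 in cDC, with overlap between PDC and cDC. Rps19bp1, a nucleolar partner of Rps19 and no ribosomal protein, had 273.0 and 380.8 in IKDC, 489.1 and 311.8 in PDC and 347.3 and 355.3 in cDC, with overlap in every comparison.

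Groups that did not overlap were about as frequent among the 50 members as in the whole table, or less so, but the shares stood further apart in IKDC versus cDC when members were split by signal. Both IKDC samples were above both cDC samples in 12 of 50 members (24%; 24.9% of all tested probe sets) and below them in 13 (26%; 26.7% of all). Both PDC samples were above both cDC samples in 8 (16%; 20.5% of all) and below them in 9 (18%; 20.8% of all). Both IKDC samples were above both PDC samples in 9 (18%; 21.7% of all) and below them in 6 (12%; 21.9% of all). Among the 29 members at 200 or more on all arrays both IKDC samples were above both cDC samples in 10 (34.5%; 31.7% of all probe sets of that signal) and below them in 4 (13.8%; 22.9% of all). Among the 21 members under 200 on an array they were above in 2 (9.52%; 23.0% of all such probe sets) and below in 9 (42.9%; 27.7% of all), and this difference by signal was not tested. The 9 below include the U74C probe set of Rpl22 and that of Rpl10l, which entered the test only through their cDC arrays. Their direction was fixed by the signal minimum, and they are also among the members below cDC counted above, in IKDC and in PDC.

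Part of the spread lay between samples of 1 population. PDC replicate 1 was higher than PDC replicate 2 in 37 of 50 members, at a median log2 difference of 0.36, where 53.4% of all tested probe sets were higher. In the 29 brighter members it was higher in 26 (89.7%), beside 43.5% of all probe sets of that signal. In cDC replicate 1 was higher in 33 of 50 members and in IKDC in 27, at medians of 0.18 and 0.05. For the Gapdh control on U74A, the signal near the 3' end over that near the 5' end, a sign of how far the amplified RNA reached, was 3.34 and 3.59 in IKDC, 6.0 and 3.19 in PDC and 4.74 and 4.13 in cDC, with PDC replicate 1 the highest. Its part in the spread was not tested. Without PDC replicate 1 the members' median log2 difference was -0.06 in PDC versus cDC and 0.20 in IKDC versus PDC, and without PDC replicate 2 it was 0.28 and -0.20. The number of members called was 0 with either left out.

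**Figure D4:**
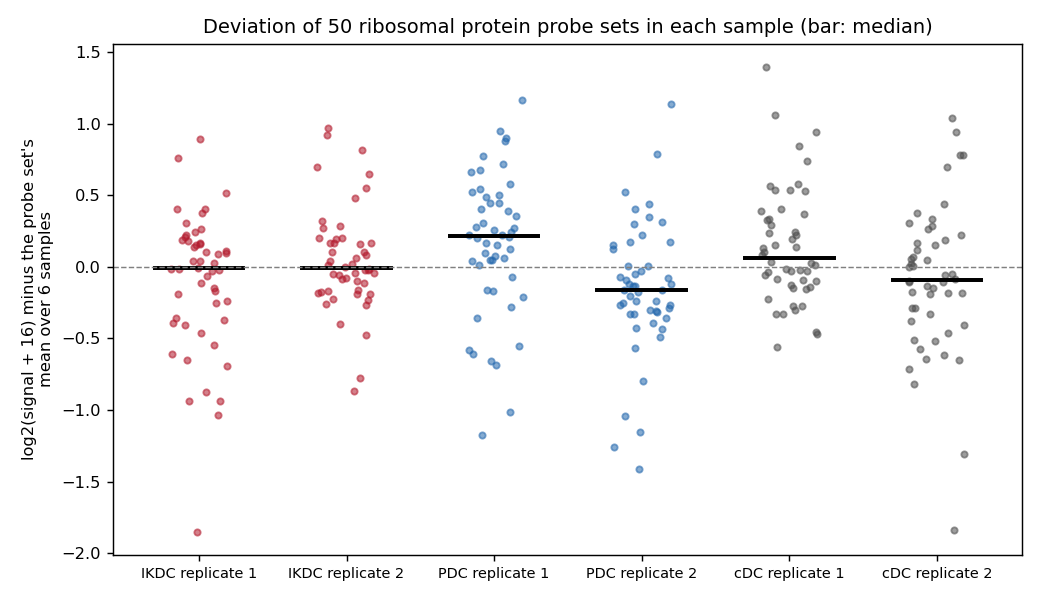
Deviation of each of 50 ribosomal protein probe sets from its own mean over 6 samples, on the scale log2(signal + 16), in each sample (bar, median). The medians are -0.01 in both IKDC samples, 0.22 and -0.16 in the PDC samples and 0.06 and -0.09 in the cDC samples.

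Probe sets outside the rule bear on the same proteins. Rpsa, which codes for a protein of the small subunit also named the laminin receptor, had 2573 and 2151 in IKDC, 1727 and 1509 in PDC and 2137 and 1675 in cDC and passed in no comparison. Fau, which codes for a small subunit protein fused to a ubiquitin-like one, did not pass either. Its signals were 17.0 and 43.2 in IKDC, 89.6 and 30.1 in PDC and 78.2 and 42.5 in cDC. Only PDC replicate 1 and cDC replicate 1 reached 60, so that this probe set says little about Fau. A further 52 probe sets carry a ribosomal protein symbol together with other symbols, such as those of copies elsewhere in the genome, and 46 were tested. Of these 1 passed, in all 3 comparisons, and with several symbols it names no gene. It had signals of 28.2 and 8.0 in IKDC, 131.1 and 140.6 in PDC and 477.2 and 395.8 in cDC, so that the 3 populations did not overlap. It was at least 7.24-fold lower in IKDC than in cDC (limma adjusted p = 0.00012), with log2 differences of -2.22 ± 0.36 in IKDC versus PDC (adjusted p = 0.00417) and -1.57 ± 0.36 in PDC versus cDC (adjusted p = 0.0379). The call in PDC versus cDC was lost without any 1 of the 4 samples compared, at log2 differences of -1.44 to -1.70 (adjusted p of 0.0909 to 0.265), while those of IKDC held with each sample left out.

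The genes that make, load and regulate ribosomes were read from lists, 1 probe set per gene. In 3 of these 7 lists a gene passed the test. Of 7 partners of the nascent chain and the nucleolus 2 were higher in IKDC than in cDC, of 16 genes of RNA polymerase I and rDNA transcription 1, and of 14 genes of mTOR and S6 kinase signalling 1 was higher and 1 lower, where 7.57% of all genes passed. In PDC versus cDC 1 gene of the 14 on the mTOR list passed, where 4.99% of all genes did, and in IKDC versus PDC 1 of the 16 on the RNA polymerase I list, where 5.88% did. With lists this short 1 gene is near such a share. The median log2 difference in IKDC versus cDC was 0.73 in the list of partners, 0.28 in that of RNA polymerase I and -0.20 in that of mTOR, where the median over all 12193 genes was 0.01.

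Ncl, nucleolin, the main nucleolar protein that acts on ribosomal RNA, had signals of 2680 and 2285 in IKDC, 1367 and 1175 in PDC and 468.3 and 1117 in cDC. Both IKDC samples were above all others, and the rise over cDC was 1.75 ± 0.37 on the log2 scale (limma adjusted p = 0.0161); a further probe set of Ncl on U74C did not pass. Naca, a subunit of the complex that binds chains as they leave the ribosome, had 2355 and 2365 in IKDC, 1955 and 1350 in PDC and 973.4 and 901.6 in cDC. The 3 populations did not overlap, and Naca rose by 1.32 ± 0.27 in IKDC over cDC (limma adjusted p = 0.0159). Npm1, nucleophosmin, of the same list, had 3117 and 2768 in IKDC, 1878 and 2701 in PDC and 1492 and 2088 in cDC, with limma adjusted p = 0.202 in IKDC versus cDC.

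Myc, a transcription factor that drives ribosomal RNA and ribosomal protein genes in many cells, had 218.6 and 198.8 in IKDC, 49.2 and 24.1 in PDC and 51.8 and 39.3 in cDC. Both IKDC samples were above all others, while both PDC and both cDC samples were under 60, so that Myc was at least 3.47-fold higher in IKDC than in cDC (limma adjusted p = 0.0154) and than in PDC (adjusted p = 0.00805). Taking a signal of 60 for those samples gives the bound. Myc entered the test only through its IKDC arrays, the group where it is high, so that it had to differ in that direction.

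Pdcd4, an inhibitor of the initiation helicase and a target of S6 kinase, had 3090.0 and 2160.2 in IKDC, 1269 and 1072 in PDC and 751.8 and 448.4 in cDC. The populations did not overlap, and Pdcd4 rose by 2.12 ± 0.32 in IKDC over cDC (limma adjusted p = 0.0021), while IKDC versus PDC gave 1.14 ± 0.32 (adjusted p = 0.0767). Deptor, an inhibitor within the mTOR complexes, had 326.6 and 203.1 in IKDC, 272.7 and 314.4 in PDC and 657.2 and 823.8 in cDC. Both IKDC and both PDC samples were below both cDC samples, and Deptor fell by 1.46 on the log2 scale (SE 0.30, limma adjusted p = 0.0203) in IKDC and by 1.28 (SE 0.30, adjusted p = 0.0477) in PDC, against cDC; 2 further probe sets of the gene did not pass.

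Leaving out 1 of the samples compared cost most of these calls while most differences kept their size, and calls over the whole table fell as well, to 589 to 620 of 1305 in IKDC versus cDC. In that comparison the call of Ncl was lost without either IKDC sample (log2 differences of 1.64 and 1.86, limma adjusted p = 0.107 and 0.061). It was also lost without cDC replicate 1, where the difference was smaller, at 1.14 (adjusted p = 0.116). That of Naca was lost without any 1 of the 4 samples, at differences of 1.26 to 1.37 (adjusted p of 0.0735 to 0.118 by limma). That of Myc was lost without either cDC sample, at 2.02 and 1.73 (adjusted p = 0.0671 and 0.108 by limma), and Myc failed the signal minimum without either IKDC sample. The Deptor call was lost in IKDC without IKDC replicate 2, at -1.13, and without either cDC sample, at -1.62 and -1.30 (adjusted p of 0.0843 to 0.17 by limma). In PDC it was lost without any 1 of the 4 samples, at -1.12 to -1.44 (adjusted p of 0.0995 to 0.29 by limma). The call of Pdcd4 in IKDC versus cDC held with each sample left out.

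**Figure D5:**
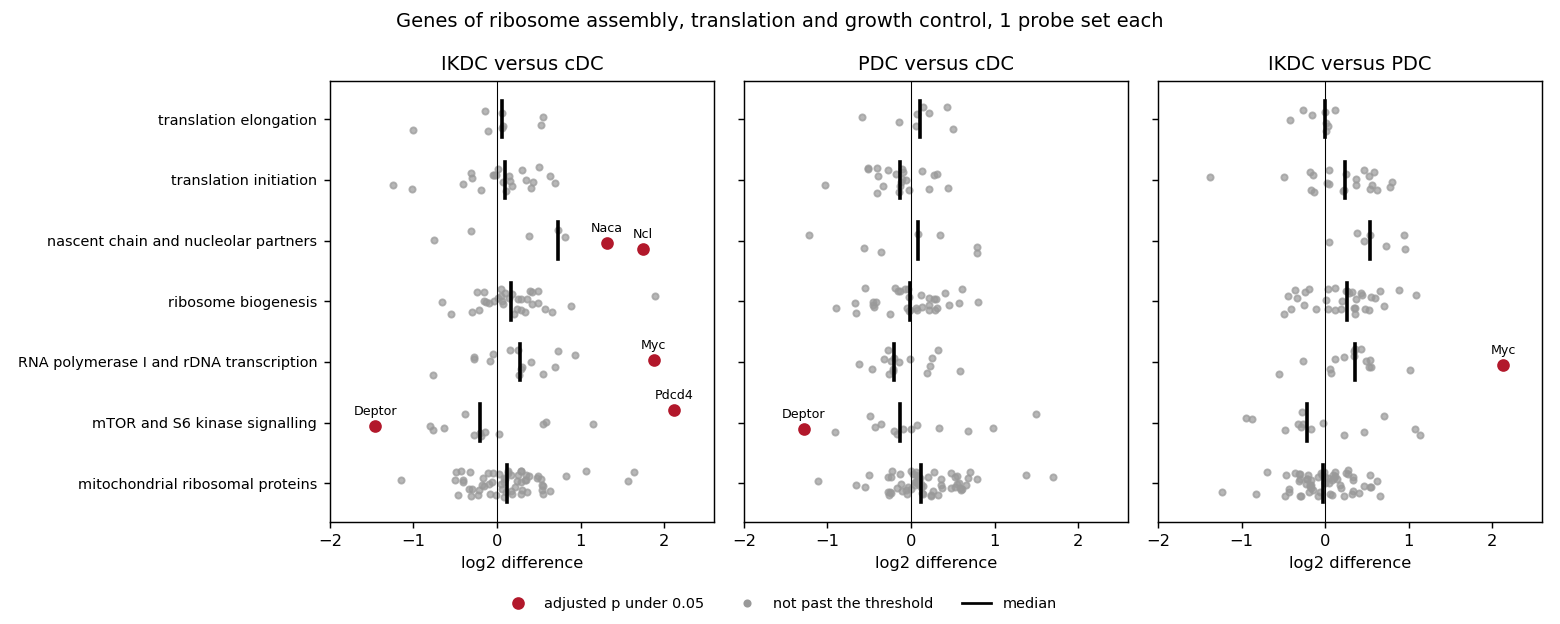
Log2 difference of each gene of 7 lists of ribosome assembly, translation and growth control, 1 probe set each, in 3 comparisons (black bar, median of the list; red, past the threshold and named). Ncl, Naca, Myc and Pdcd4 are high and Deptor low in IKDC versus cDC, and Myc is the 1 gene past the threshold in IKDC versus PDC.

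In the other lists 0 genes passed in any comparison by limma. These were 8 genes of translation elongation, 22 of initiation, 34 of ribosome biogenesis and 60 of the mitochondrial ribosome, a separate set of proteins that serves the mitochondrial genome. At an unadjusted p under 0.05 there were 0 elongation genes in any comparison, 3, 1 and 4 initiation genes, 4, 2 and 1 biogenesis genes and 6, 2 and 3 mitochondrial ribosomal protein genes, in IKDC versus cDC, PDC versus cDC and IKDC versus PDC. Of all genes 22.4%, 17.4% and 17.3% were under that p, so that 3 of 22, 4 of 34 and 6 of 60 in IKDC versus cDC lay below the share of all genes. The 4 of 22 initiation genes in IKDC versus PDC were near the share there, and the other counts lay below it. Eef1a1, which carries amino acids to the ribosome, had 15694 and 12014 in IKDC, 14552 and 12814 in PDC and 16640.0 and 13739 in cDC, with overlap in every comparison. Eef2, the translocation factor, had 2353 and 2196 in IKDC, 1922 and 2283 in PDC and 1724 and 1387 in cDC, with both cDC samples lowest and limma adjusted p = 0.29 in IKDC and 0.528 in PDC. The median log2 difference of the mitochondrial ribosomal proteins was 0.12 in IKDC versus cDC, 0.12 in PDC versus cDC and -0.02 in IKDC versus PDC.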

How the data were processed

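Total RNA of 6 samples was amplified in a pair of rounds, per the labels' protocols, and hybridised to 3 array types. Signal intensities were deposited on a linear scale. Per the labels, the authors made them with GCOS 1.1.1 and scaled each array to 150; MAS 5 stands in the submitters' processing notes. Each array had a trimmed mean of 150.035 to 150.098 and a median of 51.7 to 87.2, and precision is limited by the number of arrays. Scaling removes any difference in total mRNA, and amplification favours 3' ends.

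A pseudocount of 16 was added before log2, so that changes of low genes are understated, and array types were fitted separately. The 198 control probe sets were left out. A probe set was tested where at least 2 of its 6 arrays reached a signal of 60. The test was limma 3.58.1 in R 4.3.3 (lmFit, then eBayes with trend) on the 3 populations in 1 model with 3 residual degrees of freedom. P-values were adjusted by Benjamini-Hochberg over all tested probe sets, with a threshold of 0.05. The script was tested on simulated data, with 100 changes of log2 size 1 and 100 of size 2 planted in IKDC. All other probe sets were simulated without a difference. In IKDC versus cDC 0% of the changes of size 1 and 45% of those of size 2 passed, with 1 false call. P-values rest on the spread between 2 samples per population, part of which may be technical.

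Symbols came from the platform annotation, which pairs 29197 probe sets with 1 symbol, 724 with several and 6978 with none. A gene was represented by its tested probe set with the highest mean signal. The members, the gene lists and the naming rule were chosen with earlier results of these data known. The rule names members past the threshold, the 8 genes with the highest mean signal on U74A, the stalk, the paralogs, genes with known roles and leading genes of each list. Promoter sequences are from RefSeq.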

Additional observations from a re-analysis of the deposited data

How the results depend on the processing

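The count of ribosomal protein probe sets past the threshold was 0 in all 3 comparisons under each of 18 settings, which varied the pseudocount (1 or 64), the signal minimum (none or 200), the scaling (quantile or median), the samples in the model, the trend, the span of the adjustment, the replicate block, the probe sets per gene and the samples kept; the smallest adjusted p of a member in any was 0.0531. The median log2 difference of the members ranged from -0.11 to 0.15 in IKDC versus cDC, from -0.06 to 0.28 in PDC versus cDC and from -0.20 to 0.20 in IKDC versus PDC, where the spread of such a median between replicates was 0.17 (SD). Leaving out 1 sample gave the members a median of -0.06 to 0.15 in IKDC versus cDC, of -0.0588 to 0.28 in PDC versus cDC and of -0.20 to 0.20 in IKDC versus PDC, with both ends of the last 2 ranges from leaving out a PDC sample. Differences of 20, 28 and 29 member probe sets that passed nowhere changed sign in some setting, and no direction is claimed for them.

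Over all probe sets the calls were 1305, 849 and 1036, and leaving out a sample gave 589 to 1687 in IKDC versus cDC, 332 to 732 in PDC versus cDC and 490 to 886 in IKDC versus PDC. The call of Naca was lost without the trend (limma adjusted p = 0.0511), as was that of Deptor in IKDC (0.0784). The call of Deptor in PDC was lost with a pseudocount of 1 (0.0582), no signal minimum (0.0735), median centring (0.0514), no trend (0.148) and the replicate block (0.0635). That of the probe set with several symbols in PDC versus cDC was lost with a pseudocount of 1 (0.149), no signal minimum (0.066) and no trend (0.0614). Pdcd4 passed in PDC versus cDC with the replicate block (0.0446) and in IKDC versus PDC with it (0.0156), with a minimum of 200 (0.0491) and with adjustment within each array type (0.045).

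Deviations of samples with the same replicate number correlated at -0.09 to 0.24 over the array types, the highest for PDC and cDC on U74A. Such correlations cannot exclude a batch shared by samples of the same number, and the main model did not pair them. In the 29 brighter members replicate 1 was the higher in 62.1% in IKDC, 89.7% in PDC and 69.0% in cDC. Of all probe sets of that signal it was 48.2%, 43.5% and 47.3%. The replicate block left 0 members called. It gave 1650, 1055 and 1223 calls over all probe sets, against 1305, 849 and 1036 without it.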
